A study of Mus musculus with 8 samples.

Results

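The interferon response and antigen presentation genes are 33 genes taken by symbol from a fixed list, matched to the count tables through GENCODE release M21 of the mouse build GRCm38. Every one of the 33 had a row among the 25700 genes of the tables, and every one passed the filter on low counts, which kept 14154 genes. By role they comprised 4 interferon receptor chains, 4 transcription factors, 2 RNA sensors, 15 antiviral effectors, 2 genes for a feedback protease and a chemokine, and 6 genes of MHC class I presentation. They were measured by poly(A) RNA-seq in endothelial cells sorted from the brains of C57BL/6 mouse pups at postnatal day 6. By the genotype label 4 pups carried an endothelial deletion of GLUT1 (GLUT1EC-/-, here KO), the protein that carries glucose across the blood-brain barrier, and 4 were wild type (WT). The labels' protocol calls the WT pups littermates, but the titles and the file names each place 3 of them in another cage than the KO pups. The Cre line behind the deletion is not given in the sources used here. Each library came from 1 pup by its title, so p-values measure the spread between pups.

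Interferons are secreted proteins that signal infection or misplaced nucleic acid. Type I interferons bind the IFNAR receptor, whose signal reaches interferon-stimulated response elements in promoters through a complex that holds STAT2 and IRF9. Interferon gamma binds the IFNGR receptor, whose signal reaches gamma-activated sites. The induced genes encode proteins that block viral replication, trim and load peptides on MHC class I, or limit the response itself. Brain endothelium carries both receptors and is one of the cell types of the brain that respond to interferon.

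Promoter windows from RefSeq (build GRCm38.p6, from 250 bases before to 50 bases after each start) were matched by symbol to 30 of the 33 genes. Rtp4, Ifi27l2a and Usp18 had none. The core of the interferon-stimulated response element, written GAAANNGAAA and searched on both strands, was in 13 of the 30 genes' windows (43.3%), against 3.99% of 27025 genes with a window. It was found for Stat2, Ddx58, Ifih1, Ifit1, Ifit3, Isg15, Rsad2, Oas1a, Bst2, Ifitm3, Gbp2, Cxcl10 and B2m, and in none of the 4 receptor genes' windows. The gamma-activated site, TTCNNNGAA, which reads the same on both strands, was in 9 of 30 (30%), against 9.55% of all genes, among them the receptor genes Ifnar1 and Ifnar2. Its matches overlapped those of the first motif in Bst2 and Ifitm3. The 250 bases before the start are shown for 6 genes on which the results below turn and which hold a match, 5′ to 3′ on the gene's own strand, with matches in capitals. In Ifit1 and Rsad2 the response element lies on the other strand and so reads TTTCNNTTTC. The window of Isg15 (chr4:156200819-156201068, minus strand) holds 3 matches that overlap each other, and that of Ifit1 (chr19:34640639-34640888, plus strand) holds a pair. Those of Rsad2 (chr12:26456453-26456702, minus strand), Cxcl10 (chr5:92348890-92349139, minus strand) and B2m (chr2:122147437-122147686, plus strand) hold 1 each, and that of Irf1 (chr11:53769764-53770013, plus strand) holds a gamma-activated site.
Isg15: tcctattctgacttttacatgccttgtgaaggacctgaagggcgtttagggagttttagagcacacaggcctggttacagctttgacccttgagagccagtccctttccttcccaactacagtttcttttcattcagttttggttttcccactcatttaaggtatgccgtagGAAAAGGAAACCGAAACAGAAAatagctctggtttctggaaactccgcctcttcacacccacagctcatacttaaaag
Ifit1: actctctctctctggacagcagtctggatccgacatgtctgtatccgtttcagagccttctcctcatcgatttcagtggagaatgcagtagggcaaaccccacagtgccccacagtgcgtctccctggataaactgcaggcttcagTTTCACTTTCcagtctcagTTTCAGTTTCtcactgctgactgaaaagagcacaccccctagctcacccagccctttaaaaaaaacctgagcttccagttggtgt
Rsad2: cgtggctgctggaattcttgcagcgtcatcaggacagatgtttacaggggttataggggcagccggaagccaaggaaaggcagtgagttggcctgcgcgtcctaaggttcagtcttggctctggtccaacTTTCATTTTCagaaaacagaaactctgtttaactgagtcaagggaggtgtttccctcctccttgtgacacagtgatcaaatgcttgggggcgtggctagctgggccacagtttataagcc
Cxcl10: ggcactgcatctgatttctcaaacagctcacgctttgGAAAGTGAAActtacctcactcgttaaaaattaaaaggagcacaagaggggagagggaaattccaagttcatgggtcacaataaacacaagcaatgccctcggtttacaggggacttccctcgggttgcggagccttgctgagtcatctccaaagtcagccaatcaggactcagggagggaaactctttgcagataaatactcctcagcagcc
B2m: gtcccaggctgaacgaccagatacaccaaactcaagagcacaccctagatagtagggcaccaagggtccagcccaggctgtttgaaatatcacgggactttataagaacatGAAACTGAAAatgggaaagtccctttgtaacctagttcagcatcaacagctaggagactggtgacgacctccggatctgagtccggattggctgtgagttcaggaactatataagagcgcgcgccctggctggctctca
Irf1: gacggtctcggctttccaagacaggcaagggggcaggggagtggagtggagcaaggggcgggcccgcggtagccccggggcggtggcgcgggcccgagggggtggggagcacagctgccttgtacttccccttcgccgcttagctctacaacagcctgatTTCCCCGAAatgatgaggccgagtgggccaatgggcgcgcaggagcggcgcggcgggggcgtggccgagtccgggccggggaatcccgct

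Slc2a1, which encodes GLUT1, measured 1386 to 1602 CPM in KO pups and 2238 to 3726 CPM in WT pups, and it fell in KO by 1.01 on the log2 scale (SE 0.14, edgeR adjusted p 0.00619). The transcript was thus still present in every KO library. With cage as a term by file name the call was lost (-0.89, edgeR adjusted p 0.331), and with cage by title it was kept (-1.31, adjusted p 0.0207). CPM is a gene's count relative to the library total, scaled by TMM. Library totals were 20.9 to 40.8 M counts (M for mega) in KO pups and 25.9 to 114 M counts in WT pups. A gene at 0 could lie at up to 3 counts, which is 0.0269 to 0.144 CPM, counting error alone considered. KO pup 1 stood apart, with a count for 13624 genes where its fellow libraries had 15756 to 17082, and with correlations of at most 0.932 with them across genes. The titles give WT pup 5 the same cage as the 4 KO pups and put WT pups 1, 2 and 3 in another. The names of the count tables instead give that shared cage to the library titled WT pup 3, so cage and genotype can hardly be told apart. The 10 endothelial markers summed to 13333 to 14905 CPM in KO and 13796 to 15079 CPM in WT, and all 10 were detected in every library.

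No gene of the 33 passed the test between genotypes. The quasi-likelihood test of edgeR called 0 of 33 at an adjusted p under 0.05 (Benjamini-Hochberg over 14154 genes), where 0.389% of all tested genes were called. At an unadjusted p under 0.05, 3 of the 33 were higher in KO (Rsad2, Cxcl10 and Tap1) and none lower, against 5.52% of all genes that were higher. DESeq2 called 1 of 33, Rsad2, against 2.48% of all genes, and limma-voom called 0 of 33, against 0.509%. The groups did not overlap for 1 of 33 genes, Cxcl10, against 7.19% of all genes. The log2 fold change was above 0 for 30 of 33, against 50.3% of all genes, and its median was 0.14, against 0.0017 over all genes. That count was 15 of 33, with a median of -0.013, once KO pup 4 was left out. Without KO pup 1 it was 30 of 33, with a median of 0.23. In 30 of the 33 genes the range among KO pups and the range among WT pups were each wider, on the log2 scale, than the difference between genotypes. A range over 4 pups is easily wider than a difference of means. The share over all tested genes was not computed, so this count does not set the 33 genes apart. In sorted bulk RNA, fewer cells of a type and less RNA per cell cannot be told apart.

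**Figure D1:**
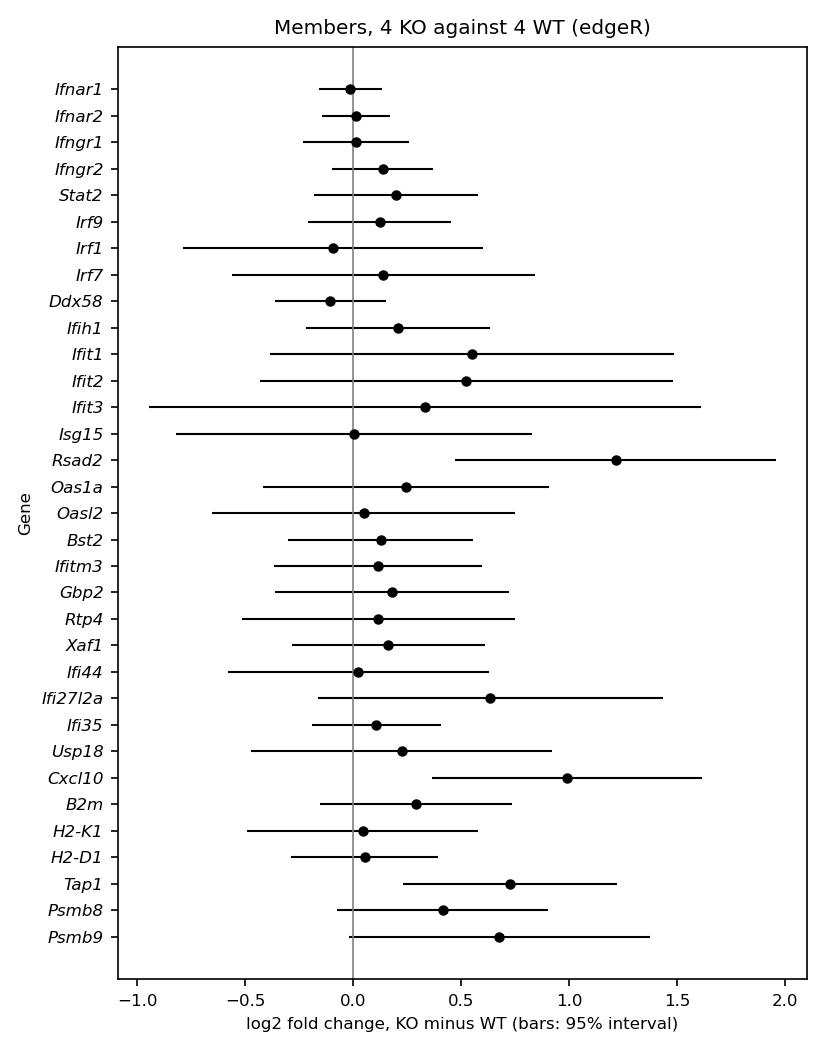
Log2 fold change of each of the 33 genes, KO minus WT, with its 95% interval, by role from the receptors at the top to MHC class I at the bottom. The intervals of Rsad2, Cxcl10 and Tap1 lie above 0 before adjustment, and 0 of the 33 genes passed after it.

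The variation lay among the pups of each genotype, and the genes moved together. KO pup 4 was the highest KO library for 28 of the 29 genes other than receptors, where it was highest for 23.1% of all tested genes. WT pup 5 was the highest WT library for 26 of these 29, against 26.0% of all genes. WT pup 3 was the lowest WT library for 24 of 29, against 24.99% of all genes, and among KO pups the lowest place was held by pup 1 for 14 genes (48.3%, against 38.8% of all genes) and by pup 2 for 15 (51.7%, against 18.7% of all genes). The mean log2 CPM of the 29 genes, relative to its mean over all libraries, was -0.21, -0.21, 0.27 and 0.69 in KO pups 1 to 4, against -0.22, -0.10, -0.60 and 0.38 in WT pups 1, 2, 3 and 5. Averaged over pups it was 0.14 ± 0.43 in KO and -0.14 ± 0.40 in WT (SD, n = 4 each), so the genotypes differed by less than 1 SD. The median within-genotype SD of these 29 genes was 0.45 on the log2 scale, against 0.17 for the 10752 tested genes in the same range of mean level. The members were chosen with results of these libraries known, and these shares carry no test.

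**Figure D2:**
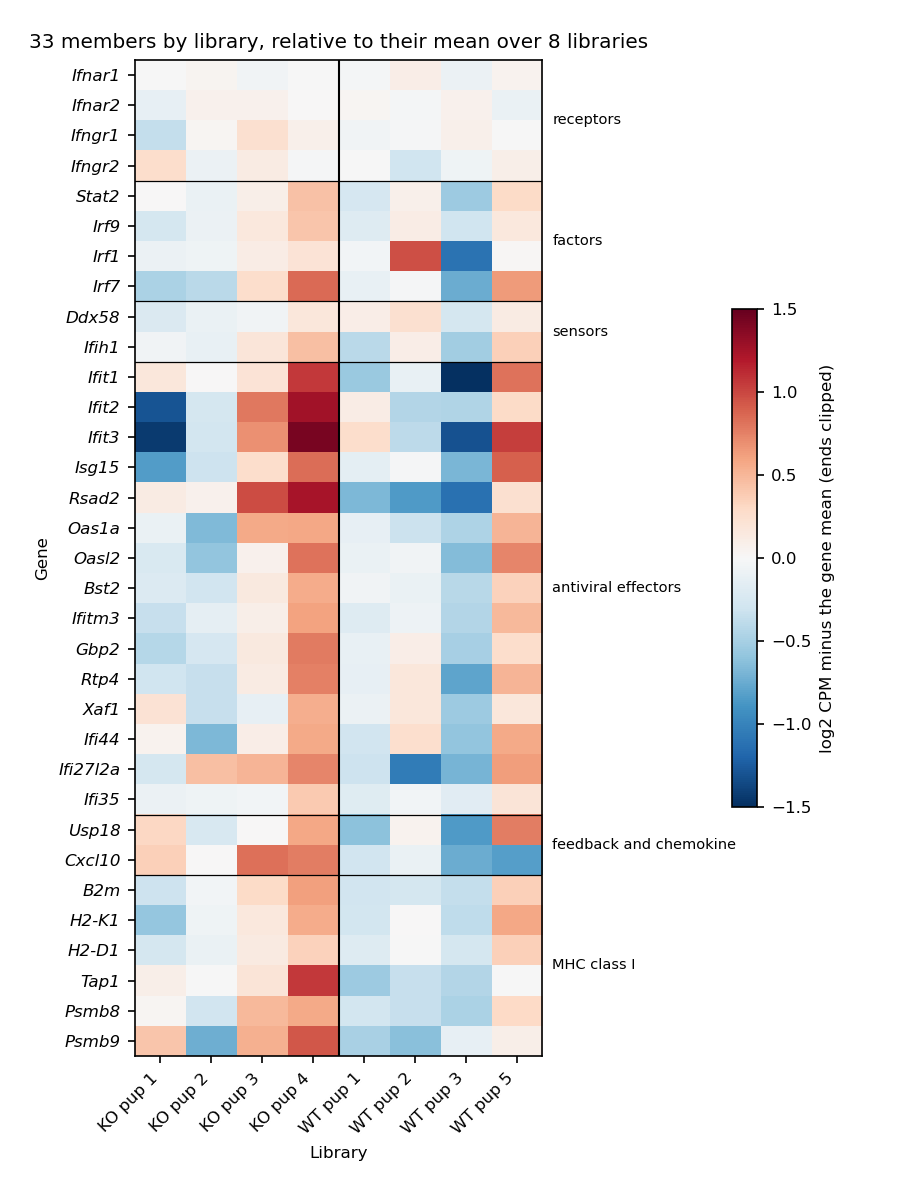
Log2 CPM of the 33 genes (rows, by role) in the 8 libraries (columns, KO left of WT), each relative to the gene's mean over the libraries; colours end at -1.5 and 1.5. The columns of KO pup 4 and WT pup 5 are high below the receptors and that of WT pup 3 is low.

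The 4 receptor chains differed little between pups. Ifnar1, a chain of the type I receptor, measured 389, 400.4, 376 and 387 CPM in KO pups 1 to 4, against 381, 417, 365 and 402 CPM in WT pups 1, 2, 3 and 5. Its log2 fold change was -0.013 (SE 0.067, 95% interval -0.16 to 0.13, edgeR adjusted p 0.971). Ifnar2, its partner chain, measured 143 to 163 CPM in KO and 145 to 163 CPM in WT. For both chains the highest library was 1.14 times the lowest. Ifngr1, the ligand-binding chain of the interferon gamma receptor, ranged from 62.6 CPM in KO pup 1 to 94.1 CPM in KO pup 3, against 77.1 to 84.5 CPM in WT. Ifngr2, its signalling chain, measured 57.4 to 73.1 CPM in KO and 49.7 to 64.7 CPM in WT, with a log2 fold change of 0.14 (SE 0.11, adjusted p 0.692). Some reads of Ifnar2 cannot be told from those of the overlapping predicted gene Gm21970. Of the 12 interferon genes listed, 11 had no count in any library, and Ifng had 3 counts, all in KO pup 4.

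Of the 4 transcription factors, 3 were highest in KO pup 4 and WT pup 5, and Irf1 differed in the WT pups. Irf7, which drives interferon production and the later wave of the response (chr7:141262706-141266481, minus strand), measured 29.9, 31.4, 49.97 and 74.8 CPM in KO pups 1 to 4, against 38.5, 41.3, 24.8 and 65.1 CPM in WT pups 1, 2, 3 and 5. KO pup 4 was 2.50 times KO pup 1 and WT pup 5 was 2.62 times WT pup 3, while the log2 fold change between genotypes was 0.14 (SE 0.32, adjusted p 0.927). Stat2 measured 57.8 to 83.5 CPM in KO and 42.4 to 75.4 CPM in WT, and Irf9 measured 61.5 to 98.5 CPM in KO and 60.3 to 82.8 CPM in WT. Both encode parts of the complex that binds the response element. Irf9 shares 123 exonic bases with Rnf31 on the same strand, and Irf7 shares 45 with Phrf1 on the other. Irf1, the factor that follows interferon gamma and inflammatory signals, measured 77.3, 78.7, 88.6 and 95 CPM in KO pups 1 to 4, against 80.0, 160.2, 38.0 and 83.2 CPM in WT pups 1, 2, 3 and 5. The WT pups spanned 4.21-fold for Irf1, with WT pup 2 and not WT pup 5 the highest. A stretch of 135 exonic bases of Irf1 overlaps Gm17334 on the other strand, and the strand setting of the counting is not given in the sources used here. Of the sensors of viral RNA, Ddx58 (RIG-I) measured 88.8 to 115 CPM in KO and 85.6 to 122 CPM in WT. Ifih1 (MDA5) measured 43.2 to 63.5 CPM in KO and 32.4 to 59.8 CPM in WT. The highest library was 1.43 times the lowest for Ddx58 and 1.96 times for Ifih1, close to the 1.97 of Stat2.

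**Figure D3:**
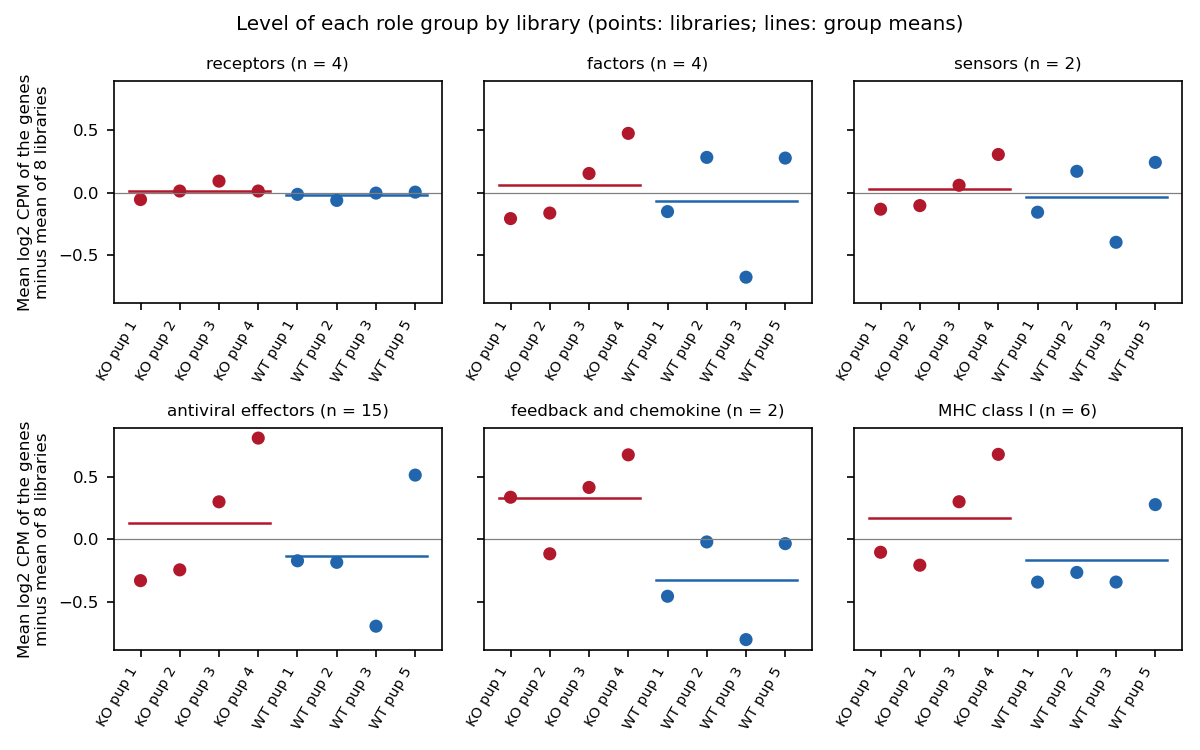
Mean log2 CPM of the genes of each role in each library, relative to the mean over 8 libraries, with KO pups (red) left of WT pups (blue) and lines at the group means. The antiviral effectors reach 0.81 in KO pup 4 and 0.51 in WT pup 5 and are lowest in WT pup 3 (-0.69), while the receptors stay between -0.060 and 0.093.

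The widest spreads were among the antiviral effectors. Isg15, a ubiquitin-like modifier (chr4:156199424-156200818, minus strand), measured 8.73, 12.6, 18.8 and 28.1 CPM in KO pups 1 to 4, against 14.2, 15.5, 9.76 and 29.2 CPM in WT pups 1, 2, 3 and 5. The depth behind these values gives an exact 95% Poisson interval, for the counting of reads alone, of 26.5 to 29.7 CPM in KO pup 4 and 7.51 to 10.1 CPM in KO pup 1, against 27.1 to 31.3 CPM in WT pup 5 and 8.78 to 10.8 CPM in WT pup 3. The genotypes nevertheless averaged 17.0 ± 8.42 CPM in KO, against 17.2 ± 8.37 CPM in WT (SD, 4 pups each). The log2 fold change was 0.0038 (SE 0.37, 95% interval -0.82 to 0.83). The means of Isg15 were thus close, but the interval of the fold change ran from 0.567 to 1.77.

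The IFIT genes encode proteins that bind foreign RNA and block its translation. Ifit1 measured 9.31, 8.33, 9.52 and 17.2 CPM in KO pups 1 to 4, against 5.60, 7.64, 2.71 and 14.6 CPM in WT pups 1, 2, 3 and 5. Ifit3 measured 1.82, 4.14, 8.09 and 13.5 CPM in KO pups 1 to 4, against 6.03, 3.80, 2.01 and 10.4 CPM in WT pups 1, 2, 3 and 5. For both genes KO pup 4 and WT pup 5 stood above the rest, and the genotypes overlapped. Ifit3 spanned 7.40-fold over the 8 libraries, the widest of the 33 genes. Ifit2 measured 4.17, 8.58, 17.8 and 24.7 CPM in KO pups 1 to 4, against 7.48 to 12.6 CPM in WT pups. The log2 fold changes were 0.55 for Ifit1 (SE 0.43, adjusted p 0.691), 0.52 for Ifit2 (SE 0.43, adjusted p 0.720) and 0.33 for Ifit3 (SE 0.58, adjusted p 0.890). Reads shared between Ifit3 and its near copy Ifit3b may have been split or dropped by the counting.

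Rsad2, which encodes the radical SAM enzyme viperin (chr12:26442746-26456452, minus strand), came closest to a genotype difference among the effectors. It measured 12.9, 12.4, 23.3 and 27.8 CPM in KO pups 1 to 4, against 7.34, 6.53, 5.42 and 13.9 CPM in WT pups 1, 2, 3 and 5. All KO pups were above WT pups 1, 2 and 3, and WT pup 5 lay above KO pups 1 and 2. The mean was 19.1 ± 7.71 CPM in KO, against 8.30 ± 3.82 CPM in WT (SD, 4 pups each). The log2 fold change of 1.22 (SE 0.34, 95% interval 0.47 to 1.96) had an adjusted p of 0.193 by edgeR. DESeq2 gave an adjusted p of 0.0147 and limma-voom 0.0770. With cage as a term by title, the log2 fold change was 0.46 (edgeR adjusted p 0.883), and with cage by file name it was 1.82 (adjusted p 0.648).

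In the remaining effectors KO pup 4 was again the highest KO library, and the genotypes overlapped. Ifitm3, which restricts virus entry at membranes, measured 113, 131, 153 and 219 CPM in KO pups 1 to 4, against 126, 137, 106 and 201 CPM in WT pups 1, 2, 3 and 5. Bst2 (tetherin), which holds budding virions at the cell surface, measured 53.8 to 96.3 CPM in KO and 49.2 to 83.2 CPM in WT. Their log2 fold changes were 0.12 (SE 0.22) and 0.13 (SE 0.20). Oas1a and Oasl2 belong to the oligoadenylate synthetase family, whose active members signal to RNase L. Oas1a measured 5.64 to 13.4 CPM in KO and 6.45 to 12.7 CPM in WT, and Oasl2 measured 20.6 to 54.6 CPM in KO and 19.7 to 51.8 CPM in WT. Oas1a has near copies in the same gene cluster, so its count is uncertain. Gbp2, a guanylate-binding protein induced mainly by interferon gamma, measured 23.3 to 53.8 CPM in KO and 22.3 to 37.7 CPM in WT. Rtp4 measured 22.8 to 49.1 CPM in KO and 16.8 to 41.6 CPM in WT, and Xaf1, an antagonist of the apoptosis inhibitor XIAP, 26.4 to 48.8 CPM in KO and 22.9 to 37.6 CPM in WT. Ifi44 measured 21.7 to 51.1 CPM in KO and 22.99 to 51.3 CPM in WT, Ifi35 28.6 to 39.8 CPM in KO and 26.8 to 34.7 CPM in WT, and Ifi27l2a 4.41 to 8.83 CPM in KO and 2.55 to 8.23 CPM in WT. All 15 effectors had a log2 fold change above 0, from 0.0038 for Isg15 to 1.22 for Rsad2, with a median of 0.16, and edgeR called none of them.

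Expressed per kilobase of exon, the most abundant effector was Ifitm3, at 228 CPM per kb in KO and 210 CPM per kb in WT. Bst2 followed at 77.4 CPM per kb in KO and 71.1 CPM per kb in WT, and Isg15 at 22.5 CPM per kb in KO and 22.7 CPM per kb in WT. Ifit1, Ifit2, Ifit3 and Rsad2 lay below 5 CPM per kb in both genotypes.

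The feedback and chemokine genes ranked the pups differently from each other. Usp18, the protease that removes ISG15 from proteins and blocks IFNAR2 signalling, measured 23.4, 15.9, 18.8 and 28.1 CPM in KO pups 1 to 4, against 12.2, 19.6, 10.4 and 31.9 CPM in WT pups 1, 2, 3 and 5. Its log2 fold change was 0.23 (SE 0.32, edgeR adjusted p 0.859). Cxcl10, a chemokine that attracts T cells (chr5:92346638-92348889, minus strand), measured 5.18, 4.06, 7.19 and 6.92 CPM in KO pups 1 to 4, against 3.29, 3.77, 2.39 and 2.25 CPM in WT pups 1, 2, 3 and 5. Every KO pup was above every WT pup, and WT pup 5 was the lowest, where it was the highest for 26 of the 29 genes other than receptors. The mean was 5.84 ± 1.48 CPM in KO, against 2.92 ± 0.73 CPM in WT (SD, 4 pups each). The log2 fold change of 0.99 (SE 0.28, 95% interval 0.37 to 1.62) missed the threshold at an adjusted p of 0.210 by edgeR and 0.0513 by DESeq2. With cage by title the log2 fold change was 1.38, and with cage by file name it was 1.29. Each of these fits rests on a single WT pup, pup 5 by title and pup 3 by file name. Those pups had the least Cxcl10 of the WT pups, so both values had to exceed that without a cage term. Cxcl10 shares 133 exonic bases with Art3 on the other strand.

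**Figure D4:**
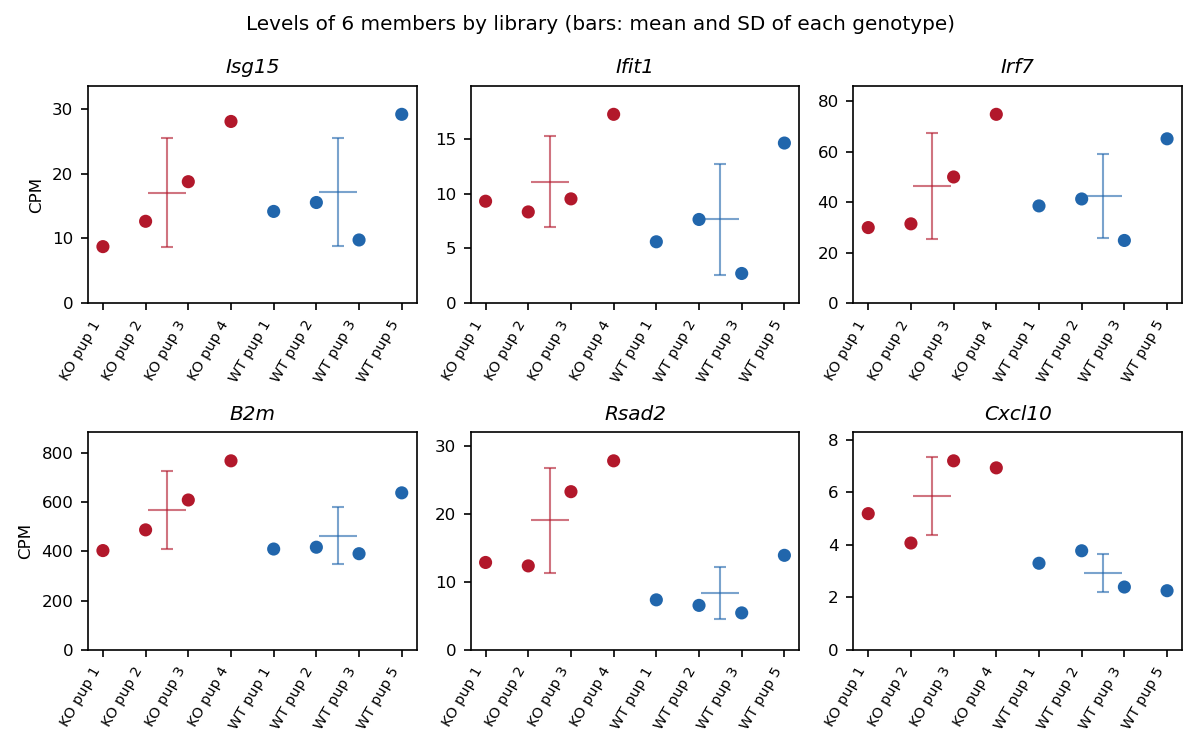
CPM of Isg15, Ifit1, Irf7, B2m, Rsad2 and Cxcl10 in each library, KO pups (red) left of WT pups (blue), with the mean and SD of each genotype. In the first 5 genes KO pup 4 and WT pup 5 are the highest of their genotypes, whereas for Cxcl10 the 4 KO pups lie above all WT pups.

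The MHC class I genes followed the pups as well. B2m, the light chain of class I molecules, measured 403, 487, 609 and 768 CPM in KO pups 1 to 4, against 409, 417, 391 and 638 CPM in WT pups 1, 2, 3 and 5. H2-K1 measured 81.8, 117, 137 and 180.3 CPM in KO pups 1 to 4, against 101.4, 123, 94.2 and 182 CPM in WT pups 1, 2, 3 and 5, and H2-D1 282 to 430.2 CPM in KO and 282 to 435 CPM in WT. These heavy chain genes are near copies of others at the locus, so their separate counts are uncertain. The log2 fold changes were 0.29 for B2m (SE 0.20, adjusted p 0.656), 0.045 for H2-K1 (SE 0.24, adjusted p 0.972) and 0.054 for H2-D1 (SE 0.15, adjusted p 0.941), by edgeR. Tap1, a subunit of the transporter that carries peptides to class I molecules, measured 32.1, 30.05, 34.5 and 63.1 CPM in KO pups 1 to 4, against 20.8, 23.7, 22.4 and 30.2 CPM in WT pups 1, 2, 3 and 5. WT pup 5 lay just above KO pup 2, and the remaining KO pups were above every WT pup. Its log2 fold change was 0.73 (SE 0.22, 95% interval 0.23 to 1.22, adjusted p 0.239 by edgeR and 0.0524 by DESeq2). The immunoproteasome subunit Psmb9 measured 8.49, 3.81, 9.19 and 12.1 CPM in KO pups 1 to 4, against 4.08 to 6.74 CPM in WT pups, and Psmb8 12.4 to 22.4 CPM in KO and 10.9 to 18.6 CPM in WT. Their log2 fold changes were 0.68 (SE 0.32, adjusted p 0.469) and 0.42 (SE 0.22, adjusted p 0.540). Tap1 and Psmb9 are neighbours read in opposite directions and share 212 exonic bases. Per kilobase of exon B2m stood highest of the 33 genes, at 659 CPM per kb in KO and 539 CPM per kb in WT.

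Both readings of the cages put a single WT pup beside the KO pups, so each fit with a cage term sets the KO pups against 1 WT pup and restates where that pup lies among the WT pups. With cage as a term by title, the comparison rests on WT pup 5. The log2 fold change was then below 0 for 25 of 33 genes, with a median of -0.17, and Isg15 had the lowest value (-0.77, edgeR adjusted p 0.805). With cage as a term by file name, it rests on WT pup 3. In that fit the log2 fold change was above 0 for 31 of 33, with a median of 0.67, and Ifit1 had the highest value (2.04, adjusted p 0.590). Neither fit called any of the 33 genes. Cxcl10, Rsad2, Tap1, Psmb9 and Ifit2 were above 0 in the fit without a cage term and in both fits with one.

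**Figure D5:**
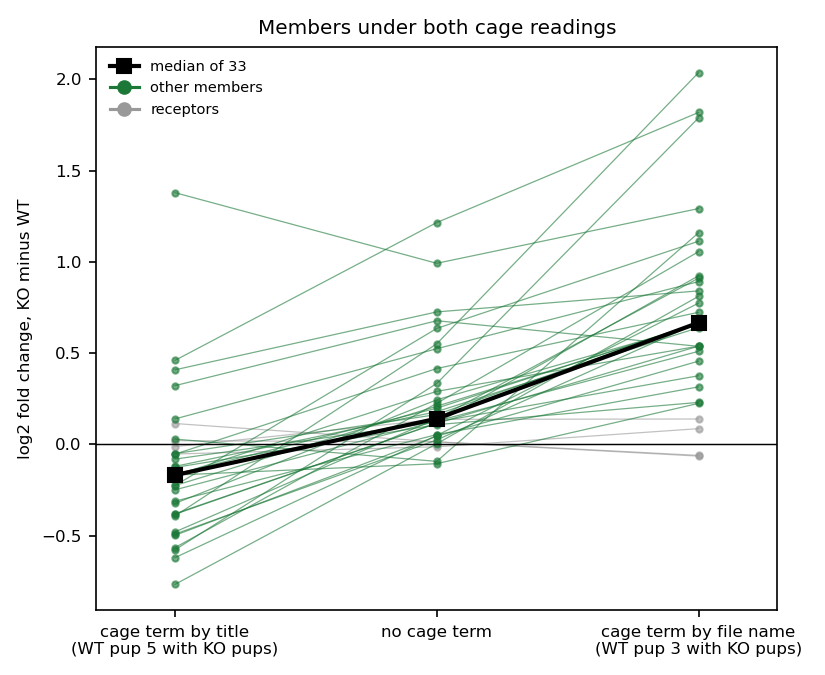
Log2 fold change, KO minus WT, of each of the 33 genes (lines) with cage as a term by title (left), without a cage term (middle) and with cage as a term by file name (right), with their median in black. The median is -0.17, 0.14 and 0.67 in turn, while the receptors stay near 0.

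The further induced genes outside the 33 followed the same pups, and the mean levels of 2 other pathway lists ranked some pups differently. Of 100 listed pathway genes outside the 33, 85 were tested and edgeR called none, against 0.389% of all genes. At an unadjusted p under 0.05, 7 of the 85 were higher, against 5.52% of all genes, and 0 lower. DESeq2 called 2, against 2.48% of all genes, and limma-voom 1, against 0.509%. The groups did not overlap for 4 of the 85 (4.71%), against 7.19% of all genes, and these were Ifi203, Oasl1, Tap2 and Pdia3. Of the 85, 60 had a log2 fold change above 0, with a median of 0.11. Among 46 further induced genes, KO pup 4 was the highest KO library for 36 (78.3%, against 23.1% of all genes). WT pup 5 was the highest WT library for 28 (60.9%, against 26.0%) and WT pup 3 the lowest for 29 (63.0%, against 24.99%). Their mean log2 CPM, relative to all libraries, was -0.43, -0.15, 0.24 and 0.62 in KO pups 1 to 4, against -0.024, -0.15, -0.35 and 0.23 in WT pups 1, 2, 3 and 5. Ifi203, a DNA-binding protein of the HIN-200 family, came closest, at 42.1, 30.8, 54.3 and 50.8 CPM in KO pups 1 to 4, against 27.2, 20.3, 19.3 and 26.5 CPM in WT pups 1, 2, 3 and 5. Its log2 fold change was 0.94 (SE 0.18) with an adjusted p of 0.0636 by edgeR, 0.000188 by DESeq2 and 0.0415 by limma-voom. Ifi203 overlaps Mndal by 37 exonic bases on the same strand. Oasl1 and Ddx60 had log2 fold changes of 0.78 (SE 0.22, adjusted p 0.188) and 0.62 (SE 0.21, adjusted p 0.273). In the signalling list the smallest p-values belonged to Irf3, Tlr3 and Jak2, at -0.21 (SE 0.11), 0.29 (SE 0.16) and 0.15 (SE 0.097), with adjusted p-values of at least 0.509 for all 21 genes tested. Among 18 further antigen presentation genes, Tap2, the partner of Tap1, had a log2 fold change of 0.26 (SE 0.089, adjusted p 0.292). Pdia3, a chaperone of peptide loading, had 0.14 (SE 0.064). Nlrc5, the class I transactivator, had 1.22 (SE 0.72, adjusted p 0.588 by edgeR). It measured 0.816, 1.04, 2.86 and 10.1 CPM in KO pups 1 to 4, against 0.978 to 2.56 CPM in WT pups. The mean log2 CPM of those 18 genes was highest in pup 4 among KO (0.38). Among WT it was highest in pup 1 (0.20, where WT pup 5 had 0.057). MHC class II genes of low level weigh heavily in that WT order. H2-Aa measured 8.35 CPM in WT pup 1 and 0.63 CPM in WT pup 5, and H2-Ab1 6.03 and 1.30 CPM. By single genes, KO pup 4 was the highest KO library for 11 of 18 (61.1%, against 23.1% of all genes). WT pup 5 was the highest WT library for 8 of 18 (44.4%, against 26.0%) and WT pup 1 for 5 (27.8%, against 21.3%). For the 21 signalling genes the mean was highest in pup 3 among KO (0.26, where KO pup 4 had 0.21) and in pup 5 among WT (0.15).

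Transcripts of other cell types also varied between the pups. The 14 microglial and macrophage markers, all detected in every library, summed to 1194, 1822, 3247 and 2357 CPM in KO pups 1 to 4, against 1563, 1141, 1645 and 1863 CPM in WT pups 1, 2, 3 and 5. KO pups 3 and 4, which had the most Rsad2 and Cxcl10, also had the highest microglial sums. For these genes the order did not hold among the remaining pups. KO pup 1 had a lower sum than KO pup 2 but more of both transcripts. WT pup 5 had the highest WT sum and the most Rsad2 but the least Cxcl10. WT pup 2 had the lowest sum and the most Cxcl10. The mean log2 CPM of the 29 genes other than receptors was 0.27 and 0.69 in KO pups 3 and 4, against -0.21 in KO pups 1 and 2. In WT it was highest in pup 5 (0.38), as was the sum. It was lowest in WT pup 3 (-0.60), whose sum exceeded those of WT pups 1 and 2. The 13 markers of other leukocytes summed to 33.3 to 52.5 CPM in KO and 33.8 to 46.7 CPM in WT, and 6 of the 13 were detected in every library. The T cell and natural killer genes among them were near 0 in both genotypes. Cd3e measured 0 to 0.0239 CPM in KO and 0.0538 to 0.217 CPM in WT, and Cd3d 0 to 0.207 CPM in KO and 0 to 0.271 CPM in WT. Cd8a measured 0 to 0.239 CPM in KO and 0 to 0.0269 CPM in WT, and Nkg7 was at 0 in KO and measured 0 to 0.0477 CPM in WT. The 5 fibroblast and choroid plexus markers summed to 53.9 to 434 CPM in KO, highest in pup 4, and to 447 to 1958 CPM in WT, highest in pup 5. The gap between genotypes came from the choroid plexus gene Ttr, at 10.5 to 276 CPM in KO and 352 to 1823 CPM in WT. The 4 fibroblast genes overlapped, Col1a2 for example at 36.0 to 100.97 CPM in KO and 28.4 to 88.6 CPM in WT. The 5 erythroid markers summed to 569 to 1001 CPM in KO, highest in pup 4, and to 522 to 1629 CPM in WT, highest in pup 5. The 7 mural cell markers summed to 1750.4 to 2632 CPM in KO, highest in pup 4, and to 471 to 2658 CPM in WT, highest in pup 3. Astrocyte markers summed to 296 to 388 CPM in KO, highest in pup 4, and to 307 to 362 CPM in WT, highest in pup 5. Neuron markers summed to 16.8 to 21.3 CPM in KO (highest in pup 3) and 17.35 to 26.5 CPM in WT (pup 5). Oligodendrocyte lineage markers summed to 65.1 to 146 CPM in KO and 60.8 to 150 CPM in WT, highest in pup 1 of each. The part of these sums in the levels of the 33 genes was not tested.

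Genes with and without a response element in the window both followed the pups. Among 26 genes other than receptors that had a window, the 13 with a match had a median ratio of KO pup 4 to KO pup 1 of 1.85 and the 13 without of 1.52. The ratio of WT pup 5 to WT pup 3 had a median of 1.84 with a match and 1.69 without. Between genotypes the median log2 fold change was 0.21 for those with a match and 0.12 for those without. These are descriptions of the 26 genes, with no test.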

How the data were processed

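RNA was measured in sorted brain endothelial cells of 8 pups. The files the authors deposited hold integer counts for every gene, 1 table a library. The submitters' processing notes name STAR, featureCounts and GRCm38. Sources used here give neither tool versions nor the annotation release nor the strand setting. Per the labels' protocols, libraries were stranded poly(A), with single-end reads of 100 bp. Of 25700 identifiers, 25664 were named by GENCODE M21.

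Groups came from the sample titles. Counts were fitted in edgeR 4.0.16 (R 4.3.3): filterByExpr (minimum count 10, minimum total 15), TMM scaling, genotype as the single term, quasi-likelihood F test, and Benjamini-Hochberg adjustment over all 14154 tested genes with a threshold of 0.05. Standard errors are the log2 fold change over the root of its F value. Log2 CPM used a prior count of 2. Alternatives were DESeq2 1.42.0, limma-voom (limma 3.58.1), other scalings, no filter, cage terms, pup number as a block, thinning, and leaving out libraries. The fit was tested on simulated data. The smallest chi-square per gene between any 2 libraries was 13.9, so none were duplicates. The members and lists were chosen with earlier results of these data known. All 33 members are named, with the 3 smallest p-values of each pathway list, and Ifng, H2-Aa and H2-Ab1 for their levels. Levels per kilobase used the union of annotated exons.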

Additional observations from a re-analysis of the deposited data

Results flagged for a closer look

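Within-genotype outliers were looked for in 66 groups of 4 pups for single genes and 24 for mean levels of 12 gene lists (the 6 roles, 3 overlapping groups of roles and 3 lists outside the 33), by the gap of the highest or lowest pup to its nearest neighbour over the range of the group, which chance marks in about 1 in 20 groups. It marked 4 and 1 of these, all at the high end in KO pup 4 or WT pup 5. In KO pup 4, Ifit1 measured 17.2 CPM, against 8.33 to 9.52 CPM in the other KO pups. Ifi35 measured 39.8 CPM there, against 28.6 to 29.5 CPM, and Tap1 63.1 CPM, against 30.05 to 34.5 CPM. In WT pup 5, B2m measured 638 CPM, against 391 to 417 CPM in the other WT pups. The mean log2 CPM of the MHC class I genes in WT pup 5 was 0.28 above the mean of all libraries, while the other WT pups lay between -0.34 and -0.26.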

How the results depend on the processing

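The number of the 33 genes called by edgeR stayed at 0 under both other scalings, without the filter, with thinning, with either cage term, within the KO cage by title, with the replicate block and without each library, whereas DESeq2 called 1 higher (Rsad2). Of the other pathway genes, 1 was called higher without a filter, by limma-voom and with thinning (Ifi203 each time), 2 by DESeq2 (Ifi203 and Oasl1), and 0 to 1 when a library was left out (Ifi203 without KO pup 2). The median over the 33 genes was 0.14 and ranged from -0.013 without KO pup 4 and 0.049 without WT pup 3 to 0.33 without WT pup 5. Without KO pup 1, the library that stood apart, it was 0.23, and without KO pup 1 and WT pup 2 it was 0.28. It was -0.17 with cage by title and within that cage, and 0.67 with cage by file name. The cause was not tested.

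The replicate block (pup number) gave a median of 0.077 and no call among the 33 genes, and Slc2a1 missed the threshold with it (-0.91, edgeR adjusted p 0.0931). By the titles, which the block used, KO pup 4 and WT pup 5 share their numbers with no other pup. The genotype term of that fit therefore rests on pups 1, 2 and 3 of each genotype. Deviations of pups with the same number by title correlated at -0.029, 0.026 and -0.071 across genes. The file names number the WT libraries otherwise. They match KO pups 1, 2 and 3 with the libraries titled WT pups 5, 1 and 2, which correlated at -0.092, -0.035 and 0.040. The numbers thus gave no sign of a pairing. With the block the sign changed for Ifnar1 (0.0039), Ifnar2 (-0.020), Ifngr1 (-0.030), Irf1 (0.039), Isg15 (-0.020) and Gbp2 (-0.0099).

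With cage by title, and within that cage to the same rounding unless a second value is given, 24 values changed sign: Ifngr2 (-0.012), Stat2 (-0.16), Irf9 (-0.081, -0.080), Irf1 (0.029, 0.030), Irf7 (-0.48), Ifih1 (-0.22), Ifit1 (-0.39), Ifit3 (-0.58), Isg15 (-0.77), Oas1a (-0.32), Oasl2 (-0.62), Bst2 (-0.25), Ifitm3 (-0.38), Gbp2 (-0.12), Rtp4 (-0.38), Xaf1 (-0.051), Ifi44 (-0.49), Ifi27l2a (-0.23, -0.22), Ifi35 (-0.13), Usp18 (-0.57), B2m (-0.17), H2-K1 (-0.50), H2-D1 (-0.31) and Psmb8 (-0.054, -0.053). With cage by file name 5 did: Ifnar1 (0.086), Ifnar2 (-0.060), Ifngr1 (-0.064), Irf1 (1.16) and Ddx58 (0.22).

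Values near 0 changed sign under other settings: Isg15 by DESeq2 (-0.0082), without a filter (-0.0053) and thinned (-0.048), Ifi44 thinned (-0.013), Irf1 by limma-voom (0.033), Ifnar1 by upper quartile scaling (2.9e-05), and Ifnar1 (0.017), Ifngr2 (-0.0012), Irf1 (0.38) and Ddx58 (0.014) without KO pup 1 and WT pup 2.

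Leaving out 1 library changed a sign for 19 genes, 16 of them without KO pup 4. Where a sign changed, the ranges were Ifnar1 -0.044 to 0.015, Ifnar2 -0.025 to 0.054, Ifngr1 -0.077 to 0.12, Irf9 -0.013 to 0.22, Irf1 -0.35 to 0.34, Irf7 -0.19 to 0.41, Ifit3 -0.24 to 0.80, Isg15 -0.36 to 0.37, Oasl2 -0.30 to 0.35, Bst2 -0.073 to 0.27, Ifitm3 -0.11 to 0.32, Gbp2 -0.13 to 0.33, Rtp4 -0.18 to 0.32, Xaf1 -0.021 to 0.28, Ifi44 -0.19 to 0.23, Ifi35 -0.026 to 0.19, H2-K1 -0.17 to 0.27, H2-D1 -0.064 to 0.19 and Nlrc5 -0.030 to 1.56. No sign changed but the value moved by over 1.5 times for Ifngr2 (0.063 to 0.18), Stat2 (0.071 to 0.33), Ddx58 (-0.20 to -0.043), Ifih1 (0.081 to 0.38), Ifit1 (0.25 to 1.05), Ifit2 (0.072 to 0.82), Oas1a (0.075 to 0.48), Ifi27l2a (0.43 to 1.07), Usp18 (0.029 to 0.60), B2m (0.10 to 0.48), Tap1 (0.41 to 0.84, the lowest without KO pup 4), Psmb9 (0.44 to 0.91), Irf3 (-0.28 to -0.14), Tlr3 (0.15 to 0.39) and Jak2 (0.089 to 0.23). With 4 pups a genotype, the median within-genotype SD was 0.40 over the 33 genes and 0.45 over those other than receptors. Differences of the size measured here for most of the 33 genes were within the spread between pups.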

Other observations

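Across all 14154 tested genes, the deviations of KO pup 4 from the KO mean and of WT pup 5 from the WT mean correlated at 0.26, the highest of the 16 pairs of a KO and a WT pup, and those of KO pup 4 and WT pup 2 at -0.24, the lowest. Genes are not independent replicates, and these values carry no test. By the titles WT pup 5 shares a cage with all 4 KO pups, and its correlations with KO pups 1, 2 and 3 were -0.092, -0.055 and -0.058. By the file names WT pup 3 shares that cage, and its correlations with KO pups 1 to 4 were 0.024, 0.069, -0.071 and -0.030. Each deviation was taken from the mean of the pup's own genotype, so whatever all 4 KO pups share was removed. A high correlation with 1 KO pup also pushes those with the remaining KO pups down. These values therefore cannot speak to a shared cage, and a part of the cage was not tested.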
